A study of Glycine max with 12 samples.

Results

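Among 6 soybean (Glycine max) RNA-seq libraries labelled R5, replicate 1 of the Gm20/Gm10 double mutant and replicate 2 of the Gm20 single mutant had nearly the same transcriptome, although they carry different genotype labels. These 2 libraries, called the close pair below, were compared with the other 4 R5 libraries, which are wild-type replicates 1 and 2, double mutant replicate 2 and single mutant replicate 1. They are 2 of 6 R5 libraries and 2 of 12 libraries in the series. The pair was chosen by the likeness of its R5 counts over many genes, so its difference from the other 4 is given as a description, with values and counts and without a test.

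The plants were field-grown. Wild type is the cultivar Thorne, the single mutant is edited in the chromosome 20 gene of a major seed protein locus, and the double mutant also carries an edit in the chromosome 10 paralog. The labels name no parent line, edit or plant age for the mutants, and they give seed of 3 to 5 plants as the material. In soybean staging, R5 denotes beginning seed fill and V5 a vegetative stage, and each genotype had 2 libraries at each. R5 libraries held 26966329 to 34626177 counts and V5 libraries 20410270 to 21066989. Counts of the edited gene, Glyma.20G085100, ranged from 0 to 4 in the R5 libraries, and those of its paralog, Glyma.10G134400, from 0 to 6, too few to check the genotype labels. Both IDs come from general knowledge of the locus.

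Soybean gene names below were attached to gene IDs from general knowledge of published work. Neither the deposited tables nor the reference table used here annotates these IDs, so the names were not checked. Of 107 such IDs, 49 were compiled after R5 values had been seen, including the trichome, CONSTANS-like, raffinose and receptor genes.

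In leaves, Rubisco fixes carbon and Rubisco activase keeps it active, and transcripts of both follow light and leaf development. Vegetative storage proteins collect in soybean leaves and pods as a nitrogen store. The plant clock pairs morning regulators such as LHY with evening regulators such as GIGANTEA, so the balance of the 2 groups varies with the time of day.

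The label seed was checked first against defining genes. The 13 seed storage genes on the list (glycinin, beta-conglycinin, Kunitz trypsin inhibitor, lectin and P34) together had 9 to 20 counts per R5 library and none of the 13 reached the expression minimum. At V5 they held 1.05% to 29.1% of all counts. Seed lipoxygenase genes LOX1, LOX2 and LOX3 together had 0 to 10 counts per R5 library. The 4 leghemoglobin genes, markers of root nodules, had 0 counts in all 12 libraries. Genes of Rubisco small subunit and activase held 0.269% to 2.11% of the counts at R5. The R5 libraries therefore lack the storage and lipoxygenase transcripts that the label seed implies, and the V5 libraries hold them. The seed oil genes FAD2-1A and FAD2-1B did reach the expression minimum at R5. Together they held 0.00015% to 0.0014% of the counts there, against 0.00935% to 0.203% at V5. Whether labels were exchanged between stages was not tested, and stage and tissue names are used here as labels. Fewer cells of a type and less RNA per cell cannot be told apart in such bulk samples.

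Closeness was measured as the standard deviation (SD) of log2 ratios between 2 libraries, over 24422 genes with at least 100 counts in each of the 6. The SD was 0.141 within the pair, and 0.246% of genes differed by more than 1.5-fold. By a separate measure, the typical difference in counts within the pair was 1.41 times that of random sampling of reads. This measure took genes by their summed counts in the 2 libraries, so it is no multiple of the SD. Among the other 4 libraries the SD ran from 0.207, between wild-type replicate 1 and double mutant replicate 2, to 0.47. From a pair library to any of the other 4 it ran from 0.561 to 0.786, and 22.3% to 35.2% of genes differed by more than 1.5-fold. Both mutant groups thus had 1 library in the pair and 1 outside it, and the replicates of each mutant differed more than the wild-type replicates. The pair differed by more than sampling noise, so it was not treated as 1 library deposited again, and n = 2 counts libraries. The counts do not say whether these are separate plants or separate preparations of 1 sample.

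**Figure D1:**
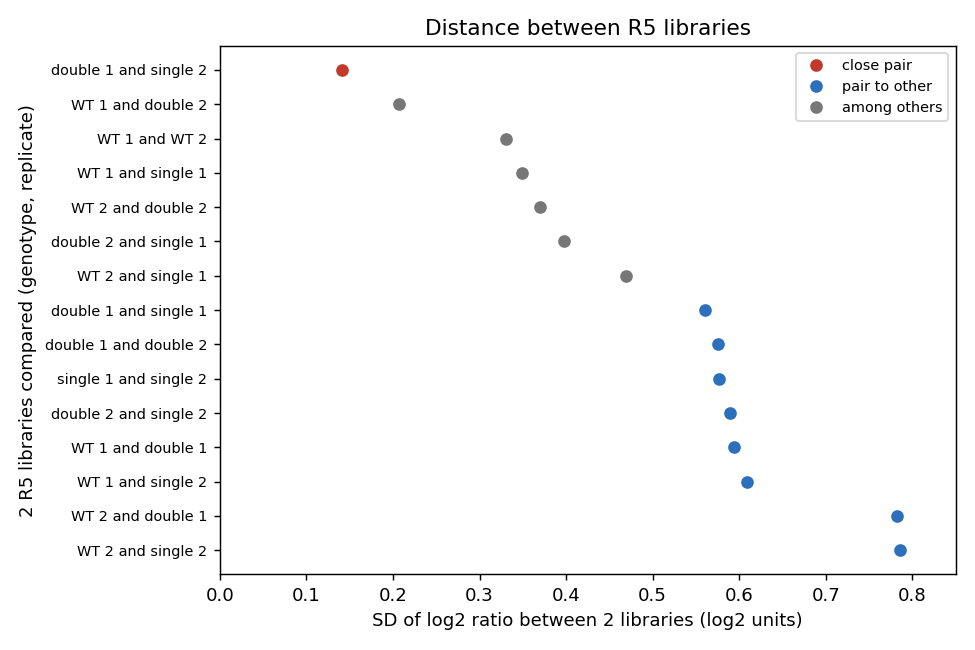
SD of log2 ratios (log2 units) for each of the 15 pairs of R5 libraries. The close pair lies lowest at 0.141, the 6 comparisons among the other libraries run from 0.207 to 0.47, and the 8 comparisons between the pair and another library run from 0.561 to 0.786.

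On a principal component analysis of log2 levels, the first component held 74.5% of the variance and placed the pair at 84.4 and 85.6. The others lay at -21.1 (single mutant replicate 1), -28.4 (double mutant replicate 2), -40.2 (wild-type replicate 1) and -80.4 (wild-type replicate 2). The second component held 11.7% and set single mutant replicate 1 apart, at -53.4.

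Levels are counts scaled to a common library total (CPM) adjusted by TMM factors over the 6 R5 libraries, where TMM corrects for differences in RNA composition. A gene was measured when its mean reached 1 CPM, which 32221 of 56044 IDs did. It was called higher when both pair libraries lay above all 4 others with a gap between the nearest libraries of at least 1.5-fold on CPM + 0.5, and lower in the opposite case. The rule called 2541 genes higher (7.89%) and 1576 lower (4.89%). Without single mutant replicate 1 it called 3355 and 2691. Since the rule of choice used these same counts, the calls describe the libraries and the share of known genes called is not read against them. With no gap required the counts were 8763 and 9864. The last genes inside and outside the 1.5-fold limit had gaps of 1.50012 and 1.49966 for higher genes and of 1.50002 and 1.49977 for lower genes. Of the calls, 61.7% were higher with TMM scaling, 64.3% with median-of-ratios factors and 41.8% with CPM by library total. The last of these placed the median log2 difference of all genes at -0.19, against -0.04 with TMM.

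Of the 107 known IDs, 59 were measured. The rule called 13 higher and 5 lower. A further 11 lay above and 13 below the other 4 libraries with a gap under 1.5-fold, and 17 overlapped them. Over all 32221 measured genes, 8763 lay above and 9864 below when any gap counted. In the earlier list of 58 IDs, 34 were measured, with 9 higher and 2 lower. In the later list of 49, 25 were measured, with 4 higher and 3 lower.

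Rubisco genes were higher in the pair. All 5 measured IDs, 2 for the small subunit (RBCS) and 3 for activase (RCA), were called higher, against 7.89% of all measured genes. Their median log2 difference was 2.17, against -0.04 over all measured genes. Activase Glyma.11G221000 stood at 8169 and 7951 CPM in the pair (double mutant replicate 1 first, as in all pairs of values below). In the other 4 it stood at 1511 and 584 CPM in wild-type replicates 1 and 2, 1529.7 in double mutant replicate 2 and 1785 in single mutant replicate 1. The groups did not overlap, and the pair mean of 8059.9 ± 154 CPM (SD, n = 2) was 5.96 times that of the others, 1353 ± 527 CPM (SD, n = 4). Wild-type replicate 2 was the lowest.

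Activase Glyma.18G036400 stood at 3846 and 3648 CPM in the pair, against 519, 196, 538 and 707 in the others in the same order, a 7.65-fold ratio of means. Activase Glyma.02G249600 stood at 1670.3 and 1662 CPM in the pair and between 438 and 708 in the others. Small subunit gene Glyma.13G046200 stood at 6696 and 6514 CPM in the pair and at 1672, 923, 1838 and 1616 in the others. Small subunit gene Glyma.19G046800 stood at 2436 and 2695 CPM in the pair and between 443 and 857 in the others. Each of the 5 had its lowest value in wild-type replicate 2. Summed activase CPM was 5.51 times higher in the pair and summed small subunit CPM was 4.1 times higher.

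**Figure D2:**
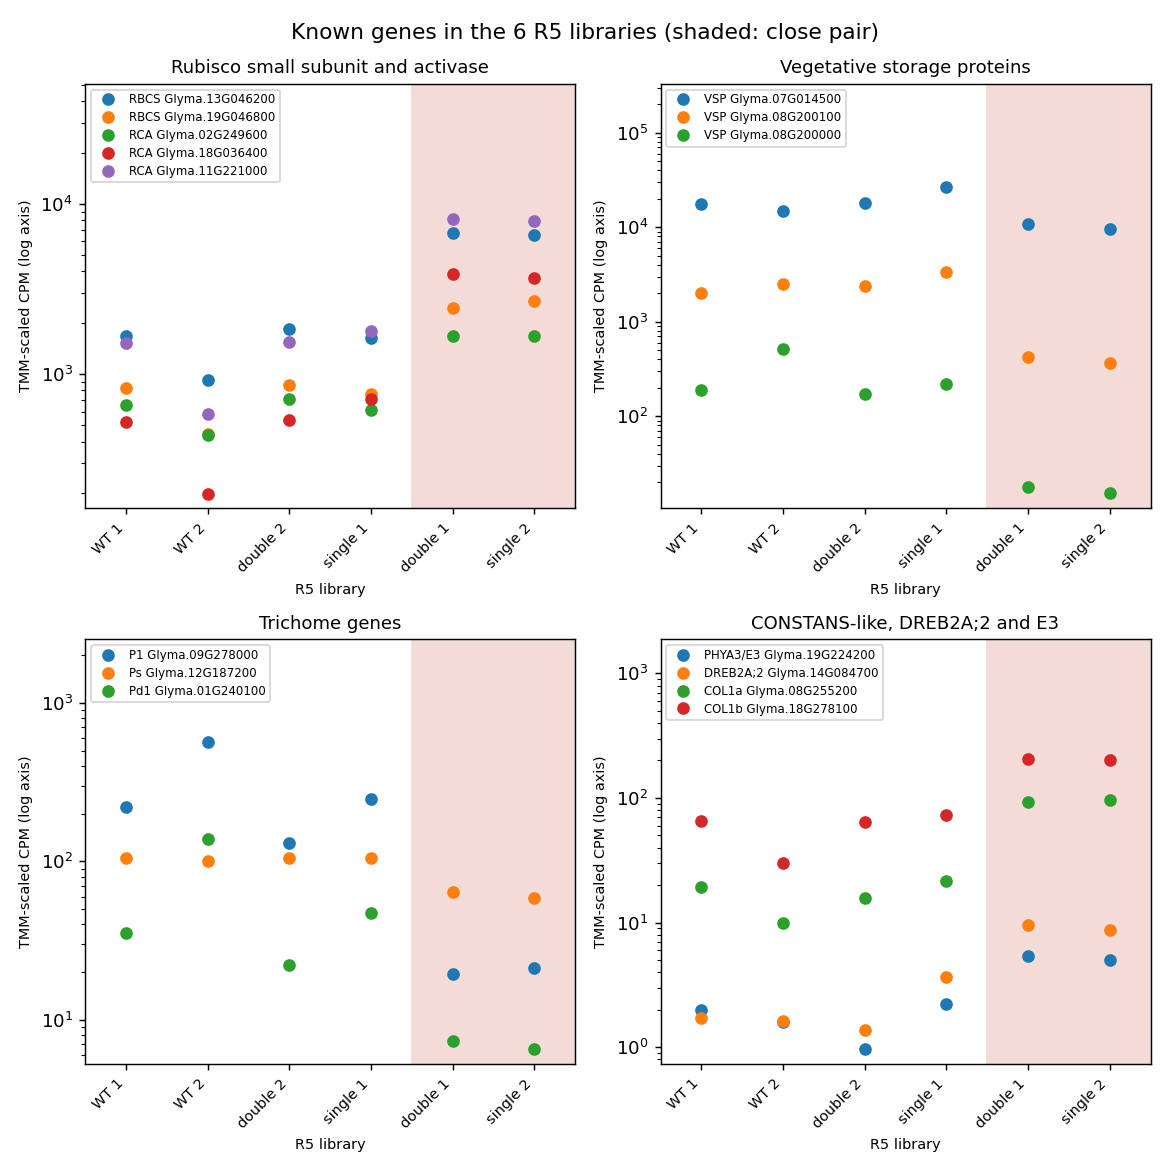
TMM-scaled CPM (log axis) of known genes in each R5 library, with the close pair shaded. Rubisco, CONSTANS-like, DREB2A;2 and E3 points lie above those of the other 4 libraries in the pair, and storage protein and trichome points lie below.

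The 3 vegetative storage protein (VSP) genes were lower in the pair, 2 of them past the rule, against 4.89% of all measured genes. Glyma.08G200100 stood at 424 and 369.8 CPM in the pair and at 1998, 2508, 2418 and 3381 in the others, so the groups were separate by a wide gap. Its mean was 397 ± 38.1 CPM (SD, n = 2) in the pair and 2576 ± 581 (SD, n = 4) in the others, a 6.49-fold difference. Glyma.08G200000 stood at 18 and 15.5 CPM in the pair and at 189, 516, 170.0 and 221 in the others, with the highest value in wild-type replicate 2. Glyma.07G014500 stood at 10898 and 9497 CPM in the pair and between 14865 and 26956 in the others, a gap under 1.5-fold. VSP genes are related in sequence, though their likeness was not examined here. How reads shared between copies were counted is not given in the sources used here. The levels of single copies are therefore uncertain.

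Trichome genes were called lower in the pair in 3 of 3 cases, against 4.89% of all measured genes. P1, the gene of the hairless (glabrous) trait, stood at 19.6 and 21.4 CPM in the pair. The other 4 held 220.4, 564, 131 and 247 CPM, with wild-type replicate 2 highest and double mutant replicate 2 lowest. The mean was 20.5 ± 1.27 CPM (SD, n = 2) in the pair and 291 ± 189 (SD, n = 4) in the others, 14.2 times higher. Pd1, a gene of dense hairs, stood at 7.33 and 6.59 CPM in the pair and at 35.5, 138, 22.2 and 47.4 in the others. Ps, a gene of sparse hairs, stood at 63.9 and 59.1 CPM in the pair and between 100.9 and 106 in the others, a narrow range. P1 was noticed among the genes with the largest differences before this list was written. Neither its place on the list nor the count of 3 is therefore an independent sign.

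Genes of leaf growth and leaf ageing lay on both sides. KIX8-1, a repressor of organ growth, stood at 4.55 and 5.05 CPM in the pair and between 6.89 and 9.59 in the others, below them by a gap under 1.5-fold. BS1, of the same growth pathway, lay below and its paralog BS2 above, also with gaps under 1.5-fold. For chlorophyll breakdown in senescence, D2 stood at 15.1 and 17.1 CPM in the pair and at 10.2 to 12.6 in the others. Its paralog D1 stood at 7.52 and 11.3 CPM in the pair and at 5.44 to 8.5 in the others, which overlapped. Of these 5 genes none passed the rule, which against 7.89% higher and 4.89% lower over all genes says nothing about them.

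Clock genes differed by smaller ratios. Of the 10 measured, 2 passed the rule, LHY2a and PRR3b, against 7.89% higher and 4.89% lower over all genes. The count is a description. All 4 LHY copies, which repress evening genes, lay above the other 4 libraries with TMM scaling, 3 of them with a gap under 1.5-fold. LHY1b overlapped with CPM by library total. With no gap required, 8763 of the 32221 measured genes lay above and 9864 below. LHY2a stood at 284 and 288 CPM in the pair and at 121, 81.1, 111 and 167 in the others, 2.39 times higher in the mean. LHY1a stood at 971 and 936 CPM in the pair and at 569, 468, 529.7 and 716 in the others. LHY1b and LHY2b had ratios of means of 1.62 and 1.7. In each LHY gene, single mutant replicate 1 was nearest to the pair, and without that library all 4 passed the rule. Apart from rescaling, leaving out the nearest library widens the gap by construction.

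Of the evening genes, E2/GIa, a maturity gene of the GIGANTEA family, stood at 103 and 112 CPM in the pair and at 72.3, 62, 77.3 and 101.001 in the others. Its paralog GIc stood at 77.7 and 73.5 CPM in the pair and between 43.1 and 64.6 in the others. Both GIGANTEA genes lay above by a gap under 1.5-fold with TMM scaling and overlapped with CPM by library total. J/ELF3a, part of the evening complex, overlapped, with 26.1 and 25.5 CPM in the pair and 30.6 in single mutant replicate 1. LUX2 of the same complex overlapped too. LUX1, its paralog, missed the expression minimum with a mean of 0.991 CPM. It stood at 0.621 and 0.652 CPM in the pair and at 1.07 to 1.31 in the others, below them by a gap under 1.5-fold. GIb had at most 8 counts in any R5 library and was not measured. The ratio of summed LHY to summed GIGANTEA CPM was 11.7 and 11.1 in the pair and 8.33 to 10.3 in the others, which puts the pair highest by a narrow margin. PRR3b, a pseudo-response regulator, stood at 85.9 and 84.3 CPM in the pair and at 51.3, 53.1, 55.2 and 54.8 in the others, and PRR3a overlapped. LHY2a and PRR3b passed with TMM scaling and did not with CPM by library total.

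**Figure D3:**
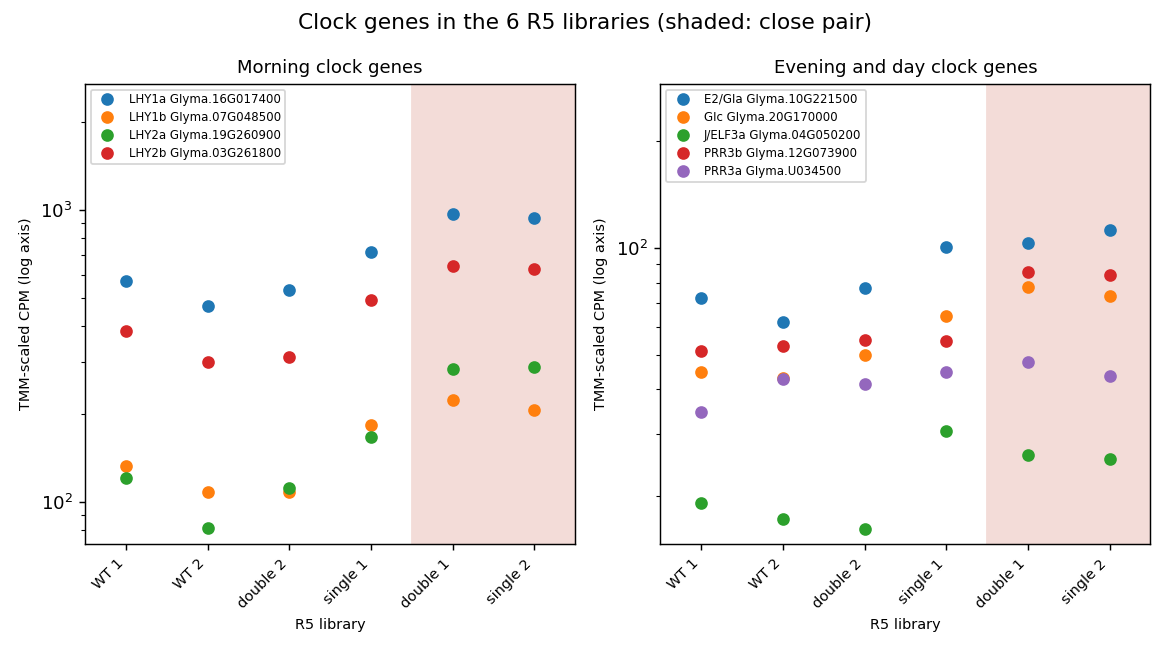
TMM-scaled CPM (log axis) of clock genes in each R5 library, with the close pair shaded. On this scaling the 4 LHY genes and both GIGANTEA genes are highest in the pair, though LHY1b, E2/GIa and GIc overlap with CPM by library total, while J/ELF3a is highest in single mutant replicate 1 at 30.6 CPM.

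COL1a and COL1b, relatives of the day-length regulator CONSTANS, were both called higher, against 7.89% of all measured genes. COL2a and COL2b, on the same list, had at most 19 counts in any R5 library and were not measured. This list was compiled after R5 values had been seen, so the count is a description. COL1a stood at 92.2 and 97 CPM in the pair and at 19.5, 9.98, 15.6 and 21.4 in the others. COL1b stood at 205 and 201 CPM in the pair and at 65.9, 29.9, 64.5 and 72.9 in the others. In both, the groups were separate and wild-type replicate 2 was lowest. Summed COL1 CPM was 3.97 times higher in the pair. The maturity gene and phytochrome A copy E3 was at 5.43 and 4.99 CPM in the pair and at 0.959 to 2.23 in the others. Other phytochromes did not pass the rule: E4 lay above with TMM scaling and overlapped with CPM by library total, PHYB1 and PHYB2 lay below, each with a gap under 1.5-fold, and PHYA1 overlapped. The flowering signals FT2a and FT5a had at most 2 counts in any R5 library, and the 4 AP1 genes had at most 9, too few to compare. Dt2, on the same flower list as AP1, was measured, with 17 to 57 counts per R5 library, and overlapped.

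Few stress genes could be read. DREB2A;2, a drought and heat regulator, stood at 9.52 and 8.74 CPM in the pair and at 1.73, 1.61, 1.36 and 3.67 in the others, 4.36 times higher in the mean. RS2, a raffinose synthase, stood at 2.22 and 2.25 CPM in the pair and at 0.448 to 1.02 in the others. It had only 15 to 69 counts per R5 library, and stood at 20.7 to 57.4 CPM by library total at V5. A link of RS2 to stress was not tested. RS3 of the same family stood at 73.9 and 75.9 CPM in the pair, 76.9 in single mutant replicate 1 and 24 to 32.2 in the rest, so it overlapped. The chaperone HSP90A2 overlapped, at 419.7 and 414 CPM in the pair and 336 to 521 in the others. In the flavonoid pathway 0 of 6 measured genes passed the rule, as did 0 of 3 nematode resistance genes of the Rhg1 locus, and against 7.89% higher and 4.89% lower over all genes such counts say nothing about these lists. NARK, a receptor kinase of nodule number control, stood at 2.52 and 3.65 CPM in the pair and at 0.479 to 0.912 in the others.

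Some genes often used as references also differed. ELF1B, a translation elongation factor, stood at 58.6 and 58.2 CPM in the pair and between 87.5 and 120.1 in the others. CYP2, a cyclophilin, stood at 419 and 391.96 CPM in the pair and between 613 and 739 in the others. Skp16 stood at 43.6 and 43.8 CPM in the pair and between 49.7 and 52.1 in the others, a gap under 1.5-fold. ACT11, CONS4, UBI3 and TUA5 overlapped, though TUA5 lay below with CPM by library total. Of the 7 reference genes 0 passed the rule, which against 7.89% higher and 4.89% lower over all genes says nothing about this list. With CPM by library total ELF1B and CYP2, and the third VSP gene, did pass.

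Over all measured genes, the called higher genes held 25.7% and 25.6% of the counts in the pair and 7.87% to 11.4% in the others. The called lower genes held 1.67% and 1.62% in the pair and 4.65% to 6.25% in the others. The median log2 difference was 1.31 for higher and -1.28 for lower genes. Among the IDs with no name here, Glyma.15G057600 had the widest gap upward, at 672 and 689 CPM in the pair and at most 5.16 in the others. Glyma.14G164900 followed, at 178 and 174 CPM against at most 3.54. Downward, Glyma.02G141900 stood at 2 and 2.38 CPM in the pair and between 35.6 and 144 in the others, and Glyma.02G142100 followed, at 1.28 and 1.17 against 18.9 to 77.2.

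**Figure D4:**
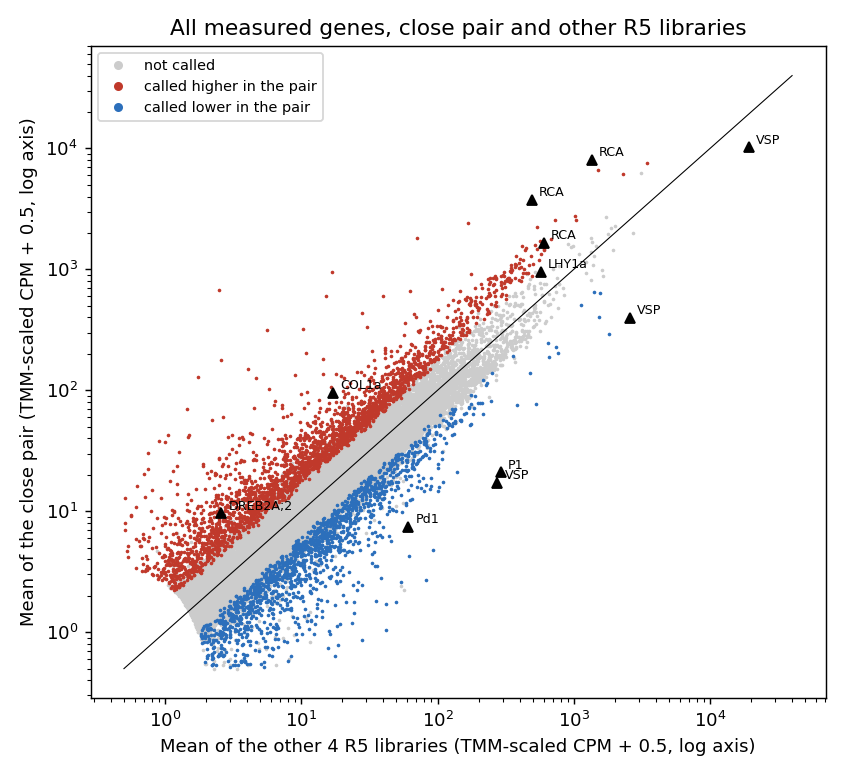
Mean level in the close pair against mean level in the other 4 R5 libraries (TMM-scaled CPM + 0.5, log axes), 1 point per measured gene. The 2541 genes called higher (red) and 1576 called lower (blue) lie on either side of the line of equal level, with known genes as triangles.

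The other 4 libraries were not alike at these genes. Wild-type replicate 2 was the lowest of the 4 in 75.4% of the higher genes and the highest in 67.9% of the lower genes, against 29.1% and 29.1% of all measured genes. Double mutant replicate 2 and single mutant replicate 1 both lay above both wild-type libraries in 32.5% of the higher genes (13.5% of all measured) and below both in 35.2% of the lower genes (14.4% of all measured). These shares use the calls' own libraries and are a description.

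**Figure D5:**
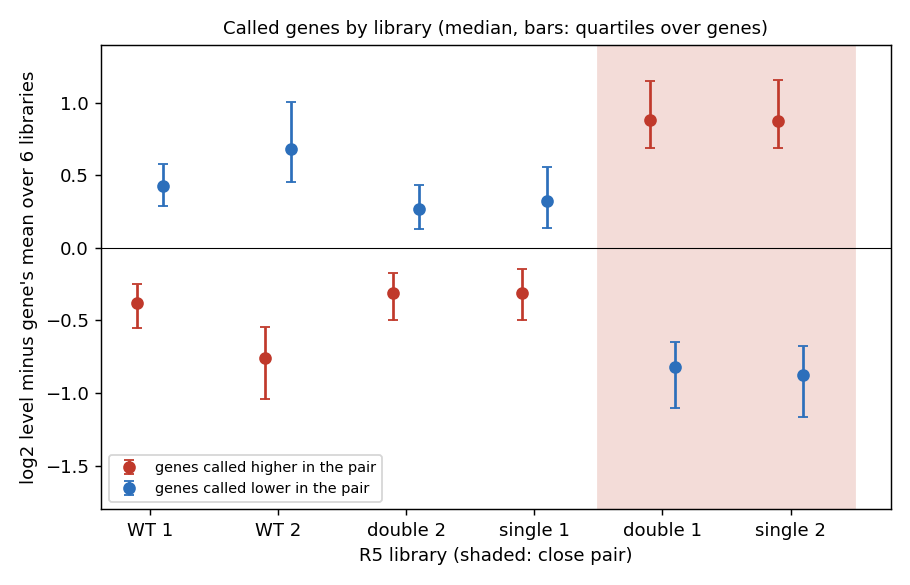
Median over called genes of the log2 level minus the gene's mean over the 6 R5 libraries, with bars for the quartiles over genes. Genes called higher in the pair (red) lie lowest in wild-type replicate 2, at -0.76, and genes called lower (blue) lie highest there, at 0.68.

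Inside the pair, 28609 of 32221 genes agreed within 1.2-fold and 31851 within 1.5-fold. Another 68 differed by 2-fold or more, 59 of them higher in single mutant replicate 2. The widest was Glyma.11G197300, at 1.18 and 11.1 CPM, a 6.93-fold difference on CPM + 0.5. Of the 68, 18 differed the same way by 1.5-fold or more between double mutant replicate 2 and single mutant replicate 1, and 11 the opposite way. In 57 of the 59, wild-type replicate 2 lay above both of the other mutant libraries. The 68 had a median level of 3.79 CPM, against 13.2 over all measured genes. The shares of all measured genes with these patterns were not counted, so the counts are a description of genes chosen for their difference.

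The V5 libraries, given as CPM by library total, were set beside these levels. Activase Glyma.11G221000 was at 1.27 to 6.51 CPM at V5 and COL1b at 0.146 to 4.41, both under every R5 library, and P1 had 0 counts in all 6. All V5 libraries lay below all R5 libraries in 56% of the genes called higher and in 32% of those called lower, against 36.9% of all measured genes. They lay above all R5 libraries in 2.24%, 5.27% and 7.16% of these sets. Genes were measured by their R5 level, so genes seen mainly at V5 could not enter, and the shares are a description. A V5 library, single mutant replicate 2, was unlike the rest: seed storage genes held 1.05% of its counts, the lowest of the 6. It exceeded the other 5 in 52.5% of the higher genes, 29.6% of the lower genes and 55% of all measured genes. The 20 most abundant genes held 5% of its counts, 28.5% to 42.1% in the other 5 and 5.08% to 7.61% at R5. CPM by library total does not correct for such a difference in composition, and its part in these shares was not tested.

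The comparison of each mutant with wild type has 1 pair library in each mutant group. The quasi-likelihood test of edgeR on the 6 R5 libraries called 0 of 37058 genes (0%) in the double mutant and 0 (0%) in the single mutant at an adjusted p under 0.05. At an unadjusted p under 0.05 there were 1089 and 2035 genes, and the smallest adjusted p was 0.779 and 0.585. By DESeq2, 60 of 34902 genes were called in the double mutant and 73 of 37058 in the single mutant. Of these, 6 and 27 were higher than in wild type. The smallest adjusted p by DESeq2 was 2.28e-11 and 3.6e-11, so the 2 methods differed. The common coefficient of variation in edgeR was 32.1%. With a term for the 2 pair libraries, which takes up their difference by construction, it was 18.7%, edgeR again called 0 and 0 (1188 and 2321 at an unadjusted p under 0.05), and the smallest adjusted p was 0.316 and 0.425. Without the pair, each mutant has 1 library, assumed to vary like wild type, and edgeR called 0 and 0 of 37455 genes (947 and 3714 at an unadjusted p under 0.05), with a smallest adjusted p of 1 and 0.0503. By DESeq2, in a fit chosen after seeing the data, 23 and 162 genes were called without the pair.

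The same genes were read in the genotype fits. For activase Glyma.18G036400 the log2 difference from wild type was 2.63 (standard error, SE, 1.26) in the double mutant and 2.62 (SE 1.26) in the single mutant, and edgeR gave an adjusted p of 0.779 and 0.585. It was 0.71 (SE 0.56) and 0.87 (SE 0.54) once the pair had its own term, where edgeR gave an adjusted p of 1 and 0.747. For COL1a the log2 difference was 1.88 (SE 1.04) and 2.01 (SE 1.04), and 0.19 (SE 0.35) and 0.45 (SE 0.34) with the pair term. For P1 it was -2.38 (SE 1.36) and -1.55 (SE 1.32), and -1.37 (SE 0.53) and -0.85 (SE 0.49) with the pair term. None of these values passed the test. These genes were named for their difference in the pair, so the smaller values with the pair term follow from the choice and are no finding.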

How the data were processed

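The authors deposited 1 table of whole-number read counts per library, for 56044 gene IDs in each of 12 libraries. The tools named, per the submitters' processing notes, are HISAT2, Bowtie and HTSeq, without version or role. Build, annotation, strand setting and the handling of multi-mapping reads were not given in the sources used here. A reference table of 59048 genes shared 0 IDs with the files, so 0 of 39 lists defined by product could be filled, and known genes were taken by published ID from general knowledge, unchecked.

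Groups came from the sample titles. The members, lists and calls were chosen with earlier results of these data known. Named genes were taken from the known IDs, plus the 2 IDs per direction with the widest gap among those with a mean of 5 CPM or more. Some known IDs with counts at R5, among them Eu4, IFS2 and CHS1, are not described one by one. R5 counts were scaled with TMM in edgeR 4.0.16 (R 4.3.3), with a pseudocount of 0.5. Genotypes were tested with the edgeR quasi-likelihood test after filterByExpr (minimum count 10, minimum total 15), Benjamini-Hochberg adjusted, and with DESeq2 1.42.0. The code was tested on simulated counts. Alternatives were other scalings, filters, gaps and pseudocounts, a replicate block, a pair term and libraries left out. The labels do not say that replicates came from separate plots, and p-values reflect only differences among these libraries, possibly technical ones.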

Additional observations from a re-analysis of the deposited data

Results flagged for a closer look

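Among the 59 measured known genes, 9 had 1 of the other 4 R5 libraries far from the remaining 3 by Dixon's criterion, which chance meets in about 1 of 20 groups. Wild-type replicate 2 was the lowest in 2 of them, at 584 CPM for activase Glyma.11G221000 and at 29.9 CPM for COL1b. Single mutant replicate 1 stood out in the other 7. It was highest for CHS8 (63.2 CPM), T/F3'H (247 CPM), Rhg1-AAT (12.7 CPM) and FAD2-1B (7.56 CPM). It was lowest for IFS1 (29.8 CPM), ACT11 (102 CPM) and TUA5 (346 CPM). CHS8, IFS1 and T/F3'H act in flavonoid synthesis, and ACT11 and TUA5 encode cytoskeleton proteins. No cause was tested.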

How the results depend on the processing

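When genes with 10 counts were admitted, the SD of log2 ratios was 0.237 in the close pair against 0.319 for the next pair (other scalings cannot change it). The 2541 higher and 1576 lower genes became 1110 and 535 with a 2-fold gap, and 8763 and 9864 with any gap. CPM by library total gave 2573 lower genes. Leaving out 1 library gave 2664 to 3355 higher and 1597 to 2691 lower genes, the last without single mutant replicate 1. Apart from rescaling and the changed mean, leaving out a library can only widen a gap, so more calls follow from the rule. CPM by library total ended the calls of LHY2a and PRR3b, and a 2-fold gap ended those of LHY2a, PRR3b, Ps and RS2. Of 567 values for named genes under alternatives, 548 moved by less than the spread among libraries inside the 2 groups and 19 moved more. These groups, the pair and the other 4, mix genotypes, so this is not a spread between replicates. The sign differed in 13, over 6 genes that were not called (CHS7, CHS8, CONS4, PHYA1, Dt2 and UBI3), and in 0 called genes. Of 59 known genes, 6 changed between separate and overlapping groups with CPM by library total (LHY1b, E2/GIa, GIc, E4, SHMT08 and TUA5). edgeR called 0 genes for both mutants under every alternative in edgeR except the crossed pairing. DESeq2 gave 60 calls for the double mutant and 73 for the single, and 23 and 162 without the close pair. With the replicate number as a block edgeR called 0 and 0. The labels tie replicate numbers to no shared plot or day, so the numbers were not taken as pairing. Deviations of same-numbered replicates correlated at 0.34 for wild type and double mutant, -0.38 for wild type and single mutant and -0.75 for both mutants, and the choice of the pair fixes the sign of the last. A crossed pairing, chosen after seeing the data, gave 8 calls in the single mutant. Depth limits the reading of genes under 1 CPM.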
